A study of Mus musculus with 12 samples.

Results

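The genes described here are 49 genes of the membrane fusion machinery, taken as every row whose annotated gene symbols all belonged to the synaptotagmin (Syt), syntaxin (Stx), Vamp, Snap, complexin (Cplx) or synapsin (Syn) series. Each gene was measured by a single set of probes, so the 49 genes were 49 of the 28944 experimental features on the array. All 49 passed the filter on low signal, a mean above 5 on the log2 scale over all arrays, which kept 28151 features in all. Vamp2 shared its feature with an unrelated gene and is given no value. The symbol pattern also took in Snap91, a clathrin adaptor of vesicle endocytosis that is not a fusion protein.

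The samples were whole main olfactory epithelium (MOE), the lining of the nose in which the neurons that sense odours sit, from mice of 6 months. H2be-KO mice carry, by homologous recombination in embryonic stem cells, a membrane-targeted Gap43-mCherry reporter in place of the coding sequence of H2be, a variant histone H2B of olfactory neurons, in a line set up by crossing to C57Bl/6. WT mice carry the intact gene. Each genotype had 6 arrays, each array was hybridised with RNA pooled from 2 mice, and animals of both sexes were used, with no sex given for an array in the labels. One figure legend of the paper, which sets array differences at 6 months against levels of the histone, names male H2be-KO mice. The mean of the Y-linked genes measured was between 1.42 and 2.61 in replicates 1 to 3 of each genotype and between 9.92 and 10.27 in replicates 4 to 6, so both genotypes held 3 arrays of each kind. The feature annotated to H2be read 11.65 ± 0.122 (SD, n = 6) in H2be-KO and 11.89 ± 0.171 (SD, n = 6) in WT (two-sided exact permutation test, p = 0.0195). The sources used here do not say where its probes lie relative to the replaced coding sequence, so this signal did not check the genotype labels. One library, WT replicate 4, stood apart from the other 11 arrays, and the family counts and many of the gene differences are given with and without it.

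Vesicles fuse when a v-SNARE on the vesicle (a Vamp protein) zips together with t-SNAREs on the target membrane (a syntaxin and a protein of the SNAP-25 family). At the synapse, calcium-binding synaptotagmins trigger this step, complexins clamp and promote it, and synapsins tether vesicles in reserve, while the same SNARE chemistry, run by other family members, serves the Golgi, endosomes and lysosomes of every cell. Olfactory neurons use the synaptic set at their axon endings in the olfactory bulb, which lie outside the dissected tissue, whereas their cell bodies, where most of the transcripts are found, lie within it.

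Promoter sequence (RefSeq, GRCm38.p6, 250 bases before to 50 after a start site) was matched by symbol for 38 of the 49 genes, with 50 windows in all. The windows of these genes were rich in CpG dinucleotides, with a median of 19 in each against 7 over all 32851 windows of this length, and a median GC content of 62.5% against 52.7%. The GC box GGGCGG, on either strand, was in 64% of their windows and in 35.7% of all windows, and the TATA box TATAAA was in 4% and 13.6%. The full cAMP response element TGACGTCA, to which factors of the CREB family bind, was in 1.79% of all windows and in 1 window of these genes, that of Syn1. The stretches of 3 genes are shown: that of Syn1 because it held this element (in capitals), and those of Syt11 and Syt1, because they were the brightest genes with a window (CpG in capitals). The windows of these 2 genes held 14 CpG for Syt11 and 6 or 8 for Syt1, below the median of the members. The Syn1 stretch is chrX:20920999-20921098 on the minus strand and holds the element 159 bases before the start site, and the other stretches are the 100 bases before the start, at chr3:88772600-88772699 and chr10:109010976-109011075, both on the minus strand.
Syn1: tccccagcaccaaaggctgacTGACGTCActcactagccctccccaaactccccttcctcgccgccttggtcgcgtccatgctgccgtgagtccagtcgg
Syt11: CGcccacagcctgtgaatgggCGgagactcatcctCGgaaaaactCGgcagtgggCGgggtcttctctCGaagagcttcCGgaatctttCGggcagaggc
Syt1: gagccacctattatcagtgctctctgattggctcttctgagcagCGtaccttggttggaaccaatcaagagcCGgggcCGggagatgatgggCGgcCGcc
The Syt11 stretch held 8 CpG and that of Syt1 5. Counting the window with most CpG of each gene, the 20 matched genes in the brighter part of the list had a median of 19.5 and the other 18 a median of 24.5, with ranges of 5 to 35 and 3 to 49 that overlapped.

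The fusion genes spanned most of the range of signal on the array. Their mean signals ran from 6.26 to 11.50 on the log2 scale with a median of 8.82, against a median of 7.93 over all 28151 features tested. Probes differ in affinity, so the order below is one of signal and not of transcript number. Syt11, a synaptotagmin that lacks the calcium-binding residues and is known in vesicle traffic in neurons and other cells, was the brightest at 11.50 and stood first in 12 of 12 arrays. It was brighter than 98.1% of all features tested.

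Snap25, the t-SNARE of neuronal exocytosis, and Syt1, the calcium sensor of fast transmitter release, followed at means of 10.92 and 10.89. The pair held places 2 and 3 in every array but exchanged them between arrays, so neither stood above the other beyond the spread. Syt4, a synaptotagmin of dense-core vesicles, came next at 10.37, with Stx12, an endosomal syntaxin, at 10.35. Their places overlapped, from 4 to 6 for Syt4 and from 4 to 8 for Stx12.

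Below them lay a group of genes whose signals could not be ordered. Stx5a, the syntaxin of the early Golgi, read 10.10, Vamp7, a v-SNARE of late endosomes and neurites, 10.05, and Snap47 and Vamp8 each 10.04, with Snap91 at 9.96. Places within this group moved between 5 and 13 from array to array. Thus among the 10 brightest genes only Snap25 and Syt1 belong to the core set for fast synaptic release, and general SNAREs of the Golgi and endosomes filled places 5 to 9 apart from Snap47, a SNAP-25 relative whose role is less settled.

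The dimmest members were Cplx4 (6.26), Cplx3 (6.34), Syt17 (6.50), Cplx1 (6.52) and Stx19 (6.97). Cplx3 and Cplx4 are known from the ribbon synapses of the retina, and Cplx1 is a main complexin of brain synapses. Within the complexins Cplx2 stood well above the rest at 8.60, and its lowest array (8.39) was above the highest array of any other complexin (6.96). Fluorescence from low-level features lies closer to background, so the dim genes are less certain to be expressed than the bright ones.

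**Figure D1:**
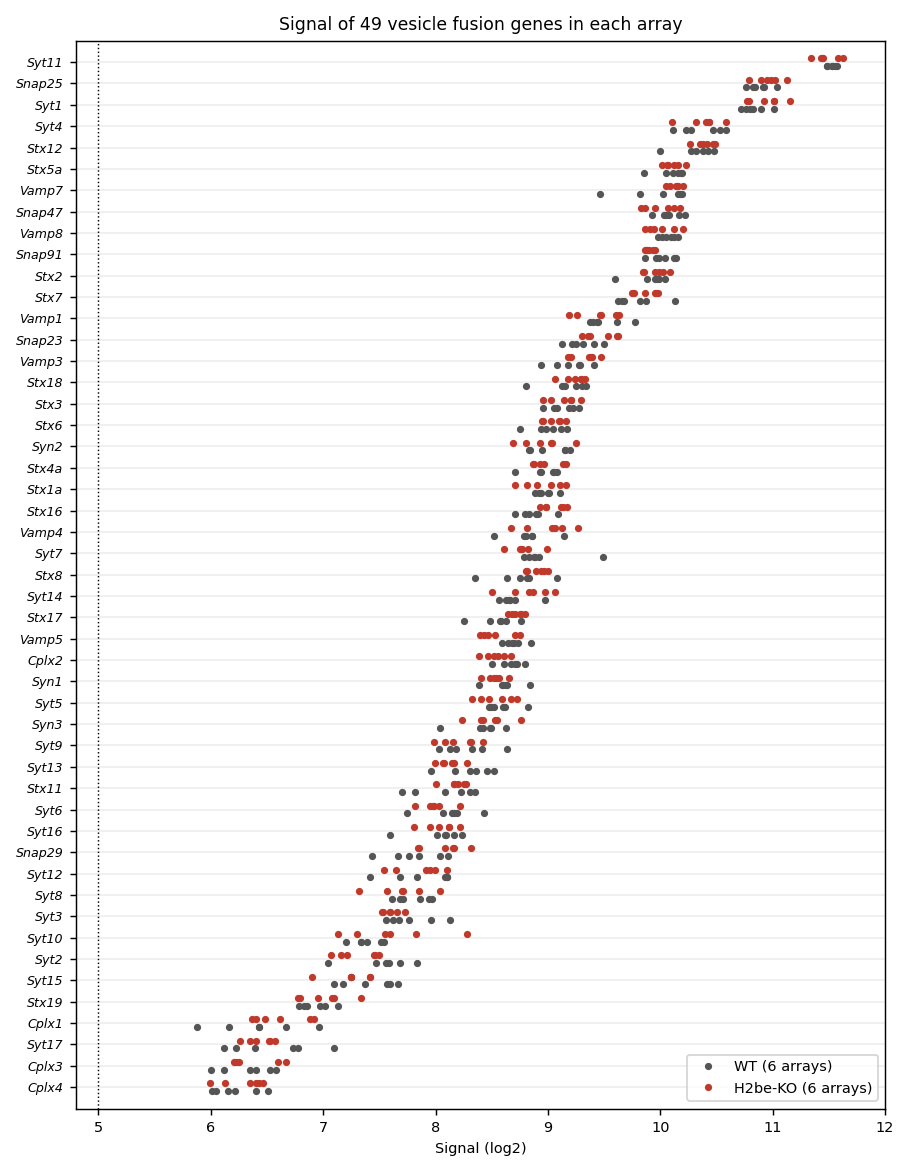
Signal (log2) of each of the 49 genes, ordered by mean, with 1 point per array (6 WT, grey; 6 H2be-KO, red) and the filter at 5 dotted. Syt11 leads in every array, Snap25 and Syt1 follow, and 3 of the 4 complexins lie among the 5 dimmest genes, while the genotypes overlap for every gene.

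No fusion gene differed between the genotypes after correction for multiple tests (limma, 0 of 49 with a Benjamini-Hochberg adjusted p under 0.05), as for all features tested (0 of 28151, 0%). At an unadjusted limma p under 0.05, 1 of the 49 was higher in H2be-KO and 0 were lower. Over all features the same threshold was passed by 5.55%, with 3.78% higher and 1.77% lower, so the share of members called was not above the background. By the exact permutation test 2 members were higher (Stx16 and Stx17) and 2 lower (Cplx2 and Snap91), against 6.01% of all features in either direction. The 95% confidence interval of the difference lay within 0.5 log2 units of 0 for 46 of 49 members, the exceptions being Snap29, Syt10 and Cplx1, and for 24154 of all 28151 features. Since the tissue was taken whole, fewer cells of a type and less RNA per cell cannot be told apart in any of these values. Nothing in the labels says that arrays of a genotype came from separate litters, so these p-values measure the spread between pools of mice.

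Among the core genes of synaptic release, the t-SNARE Snap25 read from 10.79 to 11.13 (median 10.97) in H2be-KO and from 10.76 to 11.04 (median 10.88) in WT. The calcium sensor Syt1 read from 10.77 to 11.16 (median 10.96) and from 10.72 to 11.01 (median 10.81). The ranges overlapped, with 1 H2be-KO array above every WT array for Snap25 and 3 for Syt1, and the differences of 0.078 (SE 0.080, exact permutation p = 0.227) and 0.11 (SE 0.086, exact permutation p = 0.169) were of the size of the spread between arrays. The confidence intervals, from -0.091 to 0.25 for Snap25 and from -0.075 to 0.29 for Syt1, still allowed a change of up to 1.19-fold and 1.22-fold upward. The differences of Snap25 and Syt1 were 0.053 and 0.086 without WT replicate 4, the lowest array for both genes.

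Stx1a, the plasma membrane syntaxin that pairs with Snap25, read 8.95 ± 0.175 (SD, n = 6) in H2be-KO and 8.98 ± 0.082 (SD, n = 6) in WT. Its difference of -0.025 (SE 0.089) was the only negative one among the 14 syntaxins. The synapsins, which coat vesicles and hold them in the reserve pool, lay close together in signal. Syn1, the gene whose promoter stretch holds the cAMP response element shown above, read from 8.41 to 8.66 (median 8.53) in H2be-KO and from 8.39 to 8.84 (median 8.61) in WT, a difference of -0.084 (SE 0.083, exact permutation p = 0.242). Syn2 differed by -0.064 (SE 0.106) and Syn3 by 0.073 (SE 0.108), and the arrays of the genotypes overlapped in all 3 synapsins. Without WT replicate 4 the differences of Syn1, Syn2 and Syn3 were -0.040, -0.037 and 0.12.

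The complexins gave 1 negative and 3 positive differences. Cplx2 read from 8.39 to 8.67 (median 8.54) in H2be-KO and from 8.50 to 8.79 (median 8.69) in WT. The 2 lowest arrays were H2be-KO, and the other 4 of that genotype overlapped with WT. The difference of -0.13 (SE 0.078) passed 0.05 by the exact permutation test (p = 0.0498) but not by limma (p = 0.112, adjusted p = 0.753). Cplx1 was the least steady of the 49 genes, with a within-genotype SD of 0.317 against a median of 0.164 over the members, and its difference of 0.19 had an interval from -0.15 to 0.54. Cplx3 and Cplx4 differed by 0.032 (SE 0.121) and 0.071 (SE 0.110). Without WT replicate 4 the differences of Cplx1, Cplx3 and Cplx4 were 0.30, 0.083 and 0.11.

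**Figure D2:**
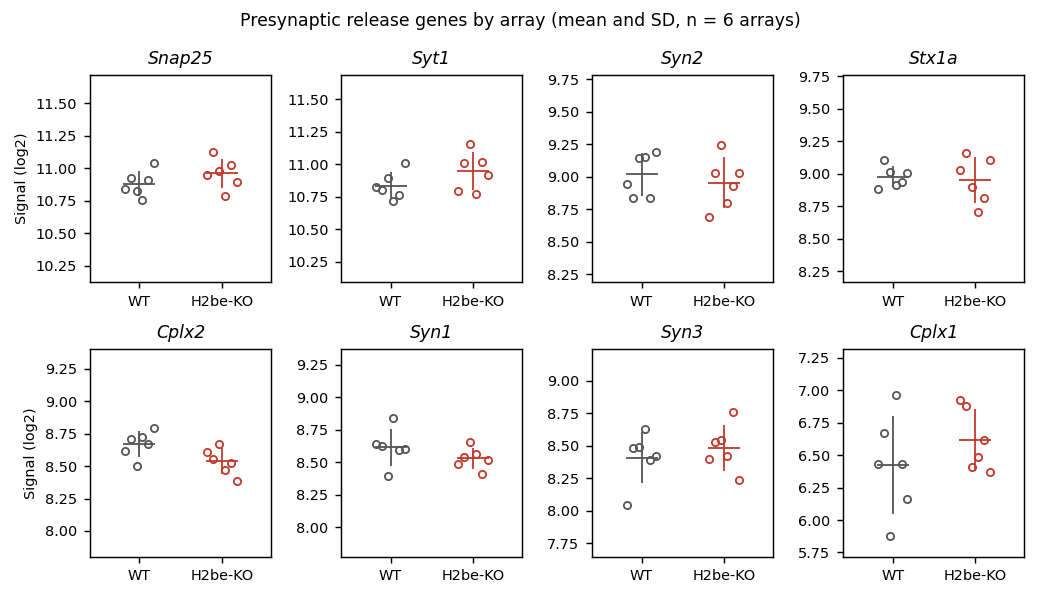
Signal (log2) of the 8 core release genes in each array (open circles), with the mean and SD of each genotype (n = 6 arrays) and a vertical axis of equal span in every panel. WT and H2be-KO overlap in every panel, least for Cplx2, and Cplx1 has the widest scatter.

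The called gene was Stx16, a syntaxin of the trans-Golgi network that receives vesicles from endosomes. It read from 8.93 to 9.17 (median 9.05) in H2be-KO and from 8.71 to 9.09 (median 8.86) in WT. Of the H2be-KO arrays 3 lay above every WT array and 3 within their range. The difference was 0.18 (SE 0.083, 95% interval 0.0034 to 0.36), or 1.13-fold, with a limma p of 0.0463, an adjusted p of 0.753 and an exact permutation p of 0.0281. Under the 25 alternatives the difference lay between 0.15 and 0.22, and the call held in 12 of them. It was lost with quantile normalization (0.15), median centring (0.17) and the mean of Y-linked genes or of mature neuron markers as a covariate (0.18 each), and without any one of H2be-KO replicates 1, 2 and 5 or WT replicates 1 to 5 (0.15 to 0.19), among them WT replicate 4 (0.15).

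Next to the threshold was Snap29, a SNAP-25 relative of autophagosomes and endosomes that is not anchored by lipid. It read from 7.84 to 8.32 (median 8.12) in H2be-KO and from 7.43 to 8.11 (median 7.81) in WT, with 3 H2be-KO arrays above every WT array. Its difference of 0.26 (SE 0.121), or 1.20-fold, was the largest positive one among the members and just missed the threshold (limma p = 0.0506, exact permutation p = 0.0649). Snap29 passed it in 12 of the 25 alternatives, as many as Stx16. Stx17, a syntaxin of autophagosomes, differed by 0.18 (SE 0.086, limma p = 0.0601, exact permutation p = 0.0238). The v-SNARE Vamp8 went the other way, at -0.060 (SE 0.079, exact permutation p = 0.34). Snap29 and Stx17 were singled out after their values were seen, and without WT replicate 4 their differences were 0.18 and 0.12, and neither passed.

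By family, differences among the SNAREs were mostly positive and those among the synaptotagmins mostly negative, all of them small. Of the 14 syntaxins 13 had a positive difference with a median of 0.071, and of all 24 SNAREs 19 did with a median of 0.076, against 56.2% of all features tested with a median of 0.023. Under quantile normalization 10 of the 14 syntaxins and 16 of the 24 SNAREs were positive, with medians of 0.034 and 0.035. In that fit 14027 of all 28151 features were positive, with a median of -0.0006. The 6 Vamp genes, the v-SNAREs, were split evenly, 3 positive and 3 negative, from -0.15 for Vamp5, a v-SNARE known from muscle, to 0.17 for Vamp4 of the trans-Golgi (0.11 without WT replicate 4), with a median of 0.038 that became -0.0028 under quantile normalization. The SNAP-25 family had 3 positive differences of 4.

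Of the 17 synaptotagmins 5 had a positive difference and 12 a negative one, with a median of -0.073 that was -0.10 under quantile normalization. None passed the test. The most negative was that of Syt2, a fast calcium sensor of hindbrain and motor synapses, which read from 7.07 to 7.49 in H2be-KO and from 7.05 to 7.83 in WT, a difference of -0.22 (SE 0.125, exact permutation p = 0.123). The calcium sensors Syt3 and Syt7 differed by -0.18 (SE 0.099) and -0.18 (SE 0.115), and Syt13, which binds no calcium, by -0.18 (SE 0.098). Without WT replicate 4 the differences of Syt2, Syt3, Syt7 and Syt13 were -0.16, -0.15, -0.077 and -0.13. Opposite in sign was Syt10, a calcium sensor of peptide release in olfactory bulb neurons, at 0.23 (SE 0.155), with 4 of 6 H2be-KO arrays above the highest WT array of 7.54. H2be-KO replicate 4 read 8.28 against a H2be-KO median of 7.57, and without it the difference was 0.096. Without H2be-KO replicate 5 it was 0.33 and passed the unadjusted threshold. Syt10 also had the second largest spread within genotypes (SD 0.300), after Cplx1 and before Syt17 (SD 0.280). The brightest member, Syt11, differed by -0.049 (SE 0.072), within an interval from -0.20 to 0.11, and Syt4 by 0.012 (SE 0.103), which was -0.036 under quantile normalization.

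Over all 49 genes 28 differences (57.1%) were positive with a median of 0.017, close to the 56.2% and 0.023 of all features tested. The list as a whole was thus balanced between the genotypes in sign, with most SNAREs on one side and most synaptotagmins on the other. The SNAREs were also the brighter set, with a median signal of 9.17 against 8.06 for the synaptotagmins. Of the 25 brightest members 17 had a positive difference (median 0.047), and of the other 24 members 11 did (median -0.0355). Whether the split goes with family or with signal was not tested. Under quantile normalization 24 of 49 were positive with a median of -0.0057, against 14027 of all 28151 features and a median of -0.0006. Within the arrays of low Y-linked signal (3 against 3) 15 of 24 SNAREs and 8 of 17 synaptotagmins had a positive difference, with medians of 0.039 and -0.013, and within those of high signal, which include WT replicate 4, 18 and 5 did, with medians of 0.10 and -0.12. Over all 28151 features 16475 were positive in the arrays of low signal and 15144 in those of high, with medians of 0.0325 and 0.018. For Stx16 the difference was 0.22 in the arrays of low signal and 0.14 in those of high.

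**Figure D3:**
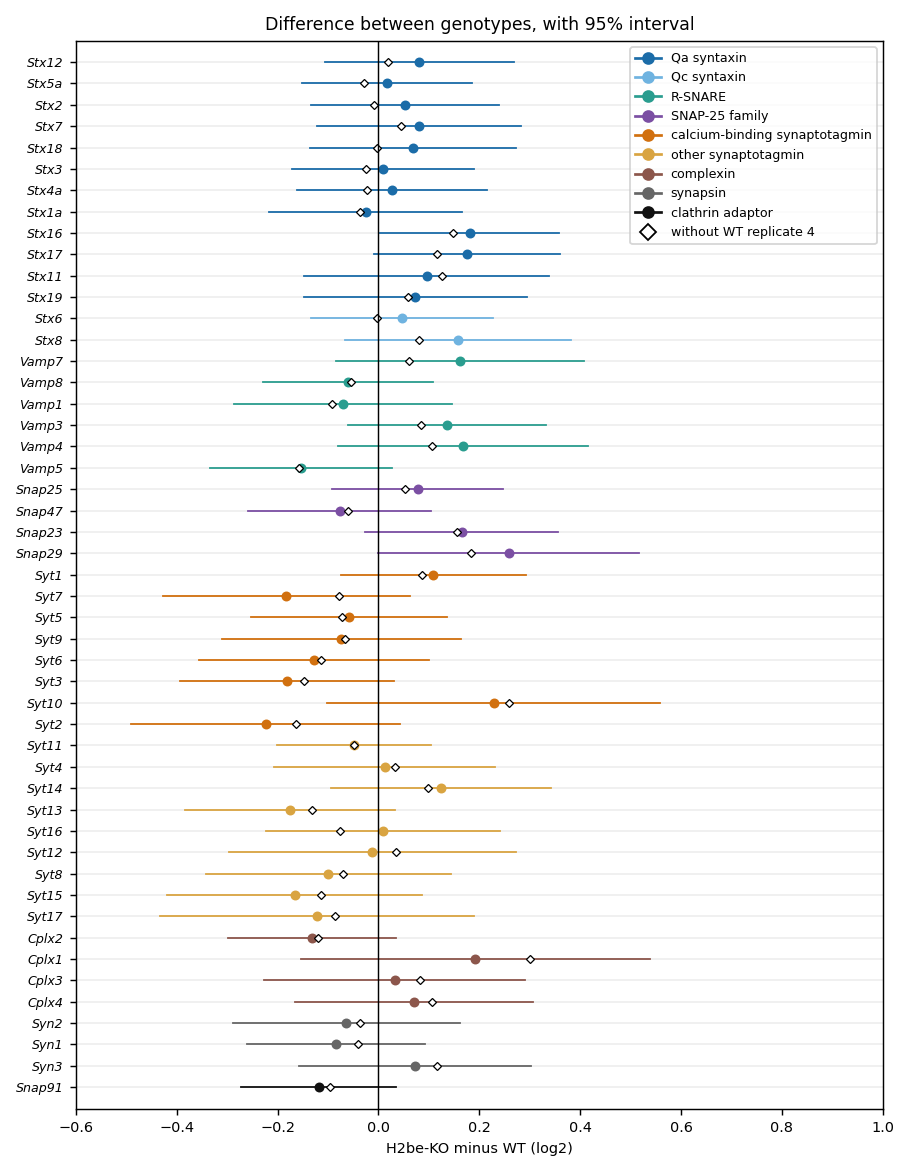
Difference H2be-KO minus WT (log2) of each gene, coloured by family, with the mean of 6 against 6 arrays as a filled circle, its 95% interval as a line, and the difference without WT replicate 4 as an open diamond. Most syntaxins lie right of 0 and most synaptotagmins left of it, the intervals of 48 of 49 genes include 0, and the diamonds of 13 of 14 syntaxins lie left of their circles. Qa and Qc name syntaxin classes by their place in the SNARE bundle, and the R-SNAREs are the Vamp genes.

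The SNARE pattern moved with WT replicate 4. The signal of this array lay outside the range of the other 11 arrays for 25 of the 49 genes (51%), against 39.4% of all features tested, the highest share of any array on both counts. For 15 of the 24 SNAREs (62.5%) it was the lowest array and for 0 the highest. Over all features tested it was lowest for 21.5% and highest for 17.9%, and among the 8539 features brighter than the members' median it was lowest for 35.4%. Among the members themselves it was lowest for 56% of the 25 brightest and for 12.5% of the other 24. Among the 17 synaptotagmins it was lowest for 2 (Syt1 and Syt16) and highest for 5 (Syt2, Syt7, Syt12, Syt13 and Syt15), and it was also highest for Cplx1, Snap91 and Syn1.

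The gap was widest for Vamp7, which read 9.46 in WT replicate 4 and so deviated by -0.64 from the mean of the other 11 arrays, with H2be-KO arrays from 10.05 to 10.20. Snap29 deviated by -0.55 and Stx8, a syntaxin of late endosomes, by -0.51. Syt7, a slow calcium sensor that also works in lysosome exocytosis, deviated by 0.67, and the median deviation was -0.28 over the syntaxins and 0.14 over the synaptotagmins. Without this array 7 of the 14 syntaxins had a positive difference with a median of 0.0077, and 13 of the 24 SNAREs with a median of 0.032, so that the lean of the syntaxins towards H2be-KO was not seen in the other 11 arrays. The synaptotagmins as a set were little altered, with 5 of 17 positive and a median of -0.072, although Syt12 and Syt16 changed sign (to 0.034 and -0.077). In the arrays of low Y-linked signal, which also lack this array, 8 of 17 were positive, as given above. Over all 49 genes 22 were positive without WT replicate 4, with a median of -0.0096. Over all features 16424 of 28151 were positive without this array, with a median of 0.024.

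Marker lists of the cells that the tissue could hold were read beside this. The mean over 7 horizontal basal cell markers, among them Krt5 and Krt14, was 8.97 in WT replicate 4 and from 8.24 to 8.70 in the other 11 arrays, and the mean over 9 markers of olfactory bulb or brain neurons was 7.99 in it and from 7.23 to 7.73 in the others. For 17 features of mature olfactory neurons it was 10.91, inside the range of 10.78 to 11.03 of the others. Every marker had passed the filter at a mean of 5, so these signals alone did not show that a cell type was present. Whether the cell makeup of this array bears on its SNARE signals was not tested. The library furthest from the rest after it for all features was WT replicate 6 (27.5% of features, 22.4% of members). Without WT replicate 6, 5 members were called higher (Snap23, Snap29, Stx8, Stx16 and Stx17) and 4 lower (Syt2, Syt3, Syt6 and Syt13) at an unadjusted limma p under 0.05, with none under an adjusted p of 0.05. In the same 11 arrays 13.6% of all features were called, against 5.55% in all 12.

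**Figure D4:**
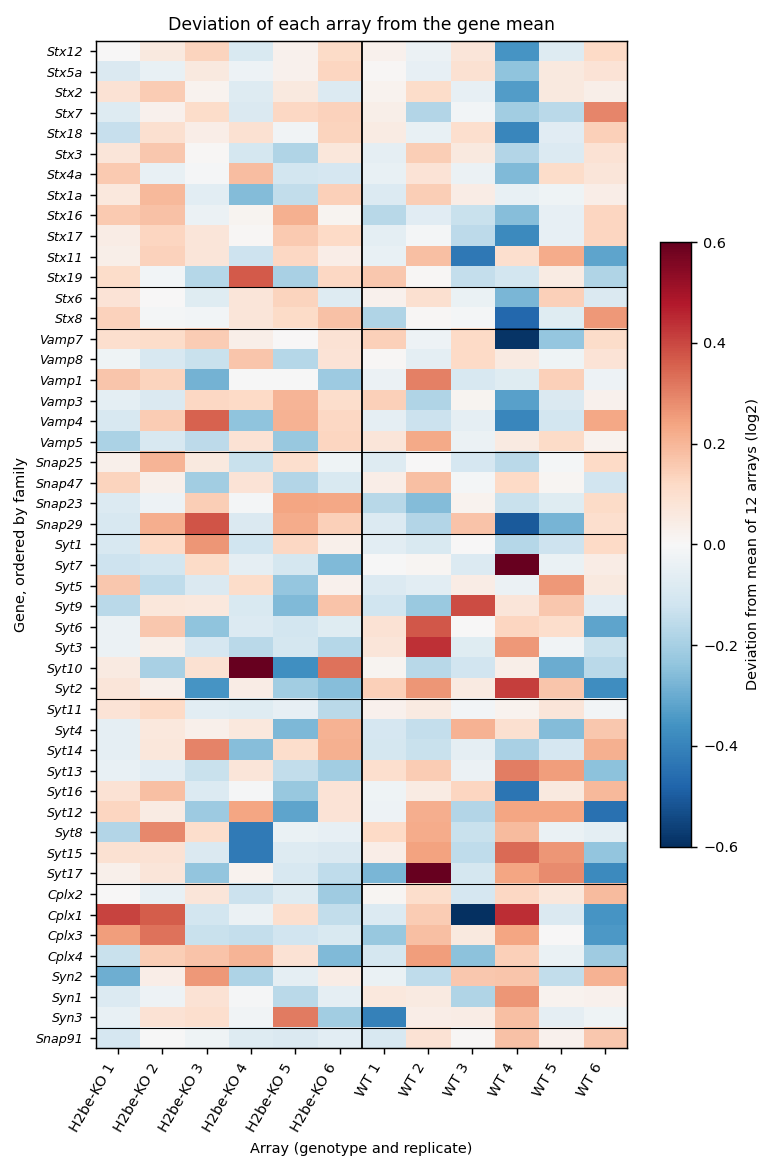
Deviation of each array from the mean of 12 arrays (log2, colour scale cut off at ±0.6) for the 49 genes in rows, grouped by family with SNAREs at the top, and arrays in columns, H2be-KO left of the line. The column of WT replicate 4 is blue over most SNAREs and red over many synaptotagmins and all complexins and synapsins.

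The other genes of vesicle release, on 7 lists of 104 features, gave a similar picture. At an unadjusted limma p under 0.05, 2 were higher in H2be-KO and 2 lower. Over all features 5.55% were called, 3.78% higher and 1.77% lower. Of the 104 differences 56 were positive with a median of 0.029, against 56.2% and 0.023 over all features. The 2 lower were Dnm1, the dynamin that pinches off synaptic vesicles (10.52 ± 0.081 against 10.71 ± 0.136, SD, n = 6 each, exact permutation p = 0.00649), and Rph3a, a Rab3 effector (difference -0.21, SE 0.091). The 2 higher were Bet1, a Golgi SNARE (9.21 ± 0.164 against 8.90 ± 0.289, SD, n = 6 each, exact permutation p = 0.0411), and Dnm3, a further dynamin (difference 0.29, SE 0.133). None had an adjusted p under 0.05, and without WT replicate 4 neither of the 2 lower calls was made.

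The SNAREs outside the symbol pattern, those of the Golgi, endoplasmic reticulum and endosomes, again had mostly positive differences, 9 of 12 with a median of 0.11. So did NSF and its adaptors, which pull spent SNARE complexes apart, 4 of 4 with a median of 0.13, and their smallest p was that of Napg (0.16, SE 0.092, exact permutation p = 0.0346). WT replicate 4 was the lowest of the 12 arrays in the mean over each of these lists, as it was for most SNAREs above. The positive differences of these lists were not counted without this array. Active zone scaffolds had 5 positive of 15, with the smallest p for Ppfia4 (-0.27, exact permutation p = 0.0952), and vesicle membrane proteins and transporters 7 of 19, with the smallest for Svop (0.18, exact permutation p = 0.123), and in both lists WT replicate 4 had the highest mean. The Munc18 and Munc13 group, which readies syntaxins for fusion, had 15 positive of 24 features (16 genes listed) and 0 called. Its smallest p was that of Stxbp6 (-0.24, exact permutation p = 0.0714). Most of the 15 positive features belonged to Unc13c, Unc13a and Stxbp4, which had several each, so the count is not one of genes. Erc1, among the active zone scaffolds, also had several features.

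The tissue read as labelled. Omp, the mature olfactory neuron marker, was at 12.90 in both genotypes, and 0 of the 17 features on the mature neuron list were called. Of the vesicle genes that these neurons are known for, Slc17a6, their glutamate transporter, read 11.28 in H2be-KO and 11.24 in WT, and synaptophysin (Syp) 11.19 and 11.27. Of other cell types, 1 of 11 immature neuron features (Gap43, 0.25) and 2 of 7 globose basal cell features (Top2a and Gadd45g) were higher in H2be-KO at an unadjusted p under 0.05, 1 of 7 horizontal basal cell features (Itgb4, -0.26) was lower, and Fabp7 of 5 glial features and Acta1 of 7 muscle features were higher. Over all features 3.78% were higher and 1.77% lower at this threshold. The reporter in H2be-KO mice carries a stretch of Gap43, and whether the Gap43 probes detect it was not tested. Amelx, a tooth enamel gene, read from 11.7 to 11.9 in 2 H2be-KO arrays and from 5.11 to 6.03 in the other 10 arrays. Without these 2 arrays Stx16 kept its difference of 0.18 but no longer passed the threshold, and Snap29 passed it.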

How the data were processed

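Mouse Gene 1.0 ST arrays from Affymetrix were hybridised with RNA of whole MOE, 2 mice to an array. The methods state that the authors summarised probes with IterPLIER and applied sketch-quantile normalisation in Expression Console, whose version the sources used here do not give. Deposited were log2 signals of 35556 features, of which 6612 controls were left out. A change in most transcripts alike would have been removed, and the number of arrays limits the precision.

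Groups came from the titles, 6 arrays per genotype. Genes were named from the platform annotation, and a gene entered only if all symbols of its feature matched. Features with a mean log2 signal above 5 were fitted with genotype as the only term in limma 3.58.1 (R 4.3.3, lmFit and eBayes), with Benjamini-Hochberg adjustment over 28151 features, and the script was tested on simulated data. Exact permutation tests ran over all 924 choices of 6 of 12 arrays and were two-sided, with a smallest possible p of 0.0022. Standard errors are limma's. Promoters came from RefSeq (GRCm38.p6).

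Members and lists were chosen with earlier results of these data known. Genes named were the core release genes, those called, the 10 brightest, the 5 dimmest, the 3 most variable and the smallest p of each other list, and further members were named after their values were seen. Alternatives covered the filter, a floor, quantile normalization, centring, the replicate block, covariates, array weights, moderation, averaging by symbol, exact tests and each array left out.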

Additional observations from a re-analysis of the deposited data

Results flagged for a closer look

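In 98 groups of 6 arrays (49 genes in 2 genotypes), 5 held an array far from the rest by Dixon's ratio, above 0.625 of the group's range. Chance would flag about 1 in 20 such groups if they were independent. The groups share the same 12 arrays, so the count was not read against that rate. Of the 5 flags, 3 were WT replicate 4: Stx2 at 9.5947 against 9.8843 in the nearest WT array, Syt7 at 9.4930 against 8.9184, and Syt16 at 7.5991 against 8.0106. The others were Syt14 in WT replicate 6, at 8.9758 against 8.7079, and Syt15 in H2be-KO replicate 4, at 6.9041 against 7.2436.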

How the results depend on the processing

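The members called higher (1 as reported) were 2 with a filter at 7, a floor at 5, trend and robust moderation, averaging by symbol or exact permutation, 0 with quantile normalization, median centring or the Y-linked covariate, 7 with array weights, and 0 to 5 with each array left out. Those called lower (0) were 1 with quantile normalization, 2 with array weights or exact permutation, and 0 to 4 with each array left out. The lowest counts came without H2be-KO replicate 2 or WT replicates 1, 2, 4 or 5, and the highest without WT replicate 6. No alternative gave a member an adjusted p under 0.05.

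The deviations of same-numbered arrays correlated positively in all 6 pairs (0.0251 to 0.5916), over 0.1 in 4, and 4 of 6 H2be-KO arrays were closest to the WT array of their number. This is a hint of structure shared by number, as is the Y-linked signal, but the labels tie the numbers to no litter or day and 2 correlations were under 0.1, so the block is an alternative here. With the replicate block 4 members were called higher (Snap23, Snap29, Stx16 and Stx17) and 2 lower (Syt2 and Syt13), 2039 of all features higher and 951 lower, and 4 other vesicle genes higher and 4 lower.

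Over all features, the 1065 higher were 2694 with array weights, 624 by symbol and 513 to 2265 with each array left out (589, 2235 and 513 when H2be-KO replicates 3, 4 and 5 were left out, and 2265 without WT replicate 6). The 498 lower were 899 with quantile normalization, 1405 with array weights and 313 to 1552 with each array left out (323 without H2be-KO replicate 5, 313 without WT replicate 4, 1552 without WT replicate 6). Of other vesicle genes, the 2 higher were 1 with a filter at 7, moderation or the neuron covariate, 4 with array weights and 0 to 4 with each array left out, and the 2 lower were 4 with quantile normalization, 1 without the arrays with high Amelx and 0 to 5 with each array left out.

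Of 545 values under alternatives, 508 kept their direction and side of the threshold and 20 turned sign, all of them small. The filters, floor, replicate block, moderation, averaging by symbol and exact tests left the differences of these genes as they were. Only p-values could move in those settings, so the 508 is not a measure of how stable the directions are. Syt4 became -0.036 with quantile normalization, -0.023 without the arrays with high Amelx and ran from -0.0381 to 0.0673 with each array left out, and Stx5a became -0.026 with quantile normalization and ran from -0.0296 to 0.0370. Array weights turned Syn2 to 0.022, Stx1a to 0.022 and Stx19 to -0.015. With each array left out Stx1a ran from -0.0666 to 0.0238, Syn3 from -0.0005 to 0.1221 and Cplx3 from -0.0339 to 0.0825. The cause of these changes was not tested, and dim genes, nearer to background, are the less certain.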
